A study of Mus musculus with 16 samples.

Results

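The 41 genes described here drive or mark the cell division cycle in mouse liver. They were chosen by name, as rows of the deposited gene count table for G1/S, DNA replication, G2/M and mitosis genes, and all 41 were found among its 23258 rows. Expression was measured by sequencing total RNA, depleted of ribosomal RNA, from snap-frozen livers of C57BL/6 mice. The protocol also names a kit for small RNA libraries and gives fewer sequencing cycles than the read length, which no source used here resolves. There were 5 libraries from livers with a liver-specific miR-33 knockout on high-fat diet, 4 from wild-type livers on high-fat diet, 4 from knockout livers on chow and 3 from wild-type livers on chow. The name of the deposited table speaks of Alb-Cre, a Cre recombinase driven by the albumin promoter and thus active in hepatocytes, while the labels say only that the knockout is specific to liver. Whether the wild-type mice carried a floxed allele or Cre, their age and sex, the length of the diet and any batch are not stated in the labels. The numbers in the sample titles form separate series on each diet, so diet and that series cannot be told apart. The labels do not say that the libraries came from separate animals, so a p-value here reflects the spread between libraries, which may be technical.

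Most hepatocytes of an adult mouse rest outside the cycle and re-enter it after injury or loss of tissue, often becoming polyploid. Cyclin D with Cdk4 or Cdk6 inactivates the Rb family and frees E2F factors, which turn on the genes of DNA replication. The Mcm helicase, the clamp Pcna and the enzymes that make deoxynucleotides then copy the genome. Cdk1 with A- and B-type cyclins, together with the FOXM1 and MuvB transcription complexes, brings on mitosis, and the spindle checkpoint, the kinetochore and the cytokinesis proteins carry it out. The microRNA miR-33 lies within the Srebf2 gene and is known for repressing cholesterol export, and it has been reported to repress the cell cycle genes Ccnd1, Cdk6 and Pim1.

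The mature microRNA removed by the knockout is shown because its seed, in capitals (bases 2 to 8), sets which transcripts it can pair with. It is RefSeq sequence of build GRCm38.p6, at chr15:82198127-82198147 on the plus strand.
mmu-miR-33-5p: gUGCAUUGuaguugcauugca
The DNA letters that pair with this seed are CAATGCA. They were found in the longest annotated 3′ UTR (GENCODE M21, at least 20 bases) of 4 of 41 cell cycle genes (9.76%), against 985 of 13099 tested genes that have such a UTR (7.52%). The 4 were Tk1, Top2a, Ect2 and Tyms, and their sites are printed with the match in capitals, 5′ to 3′, because they are the places in these genes where the seed could pair.
Tk1: gccaagatgcctCAATGCAgactggagccc
Top2a: aaatcttctaaaCAATGCAagcca
Ect2: aagactgaacagCAATGCAacacttgctga
Tyms: atctaggagattCAATGCActtaggttttt
Of the 3 genes reported as miR-33 targets in the cell cycle, Cdk6 held 2 matches and Pim1 held 1, while these letters do not occur in the Ccnd1 UTR examined. A match describes the letters alone and is not a measured site.

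Library totals ran from 20993930 to 29469645 estimated counts in knockout livers on high-fat diet, 16149911 to 25823475 in wild-type livers on high-fat diet, 15888436 to 26821573 in knockout livers on chow and 17502937 to 22902669 in wild-type livers on chow. Levels are given as CPM, counts scaled to library size after TMM. The ribosomal RNA row CT010467.1 took between 0.637% and 14.6% of the counts of a library. On principal components, the knockout high-fat library 1 stood apart on the third (50.2) and the wild-type chow library 3 on the second (-48.8). Calls that changed without either are given beside the gene. The miR-33 level itself was not analysed here, so the knockout could not be checked at its target.

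The cell cycle genes were higher on high-fat diet than on chow in both genotypes. With edgeR's quasi-likelihood test and Benjamini-Hochberg adjustment over 16830 genes, 32 of the 41 genes rose in knockout livers, 2 fell and 7 did not pass 0.05. In wild-type livers 31 rose, 1 fell and 9 did not pass. Fold changes are given on the log2 scale, ± SE of the fit. Of all genes tested, 17.4% rose and 16.2% fell in knockout livers, while 15.2% rose and 14.2% fell in wild-type livers. The median log2 fold change over the 41 was 1.67 in knockout livers and 1.64 in wild-type livers, beside -0.01 and -0.02 over all genes tested. High-fat and chow libraries did not overlap for 27 of the 41 in knockout livers (65.9%, all higher), against 26.5% of all genes. In wild-type livers they did not overlap for 34 (82.9%), with 33 higher and 1 lower, against 36% of all genes. Of the calls, 26 of 34 in knockout livers and 26 of 32 in wild-type livers were kept whichever of the 16 libraries was left out.

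The filter on low counts bears on these calls, medians and overlap counts. It kept 16 of the 41 genes only through the high-fat libraries, so such genes had to be higher there to be tested at all. The 16 were Ccnb1, Ccnb2, Plk1, Foxm1 and Melk, the checkpoint and passenger genes Bub1, Bub1b, Cdc20 and Aurkb, the kinetochore genes Cenpe and Cenpf, the cytokinesis genes Kif20a, Kif23, Racgap1 and Prc1, and Top2a. None was a G1, helicase, clamp or deoxynucleotide gene. Among the 25 genes that the chow libraries alone would keep, 17 rose and 2 fell in knockout livers (median log2 fold change 1.12), against 17.7% of the 15045 genes kept this way that rose. In wild-type livers 15 rose and 1 fell (median 1.03), against 15% that rose. The overlap counts were not taken over these 25 genes, so the filter raises them by an amount that is not given here.

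Most genes that rose did so in both genotypes. Of the genes called higher, 30 were shared, which is 93.8% of the knockout calls and 96.8% of the wild-type calls, and 15 of the 30 are among the 16 kept only through the high-fat libraries. Of the 25 genes that the chow libraries keep, 15 rose in both genotypes (88.2% of the knockout calls and 100% of the wild-type calls), against 1675 of the 15045 genes kept this way (62.8% of the knockout calls and 74.2% of the wild-type calls). Ccne2 and E2f1 passed in knockout livers alone and Kif23 in wild-type livers alone. The differences between genotypes in the diet effect, knockout minus wild type, were 0.81 ± 0.52, 0.55 ± 0.37 and -1.62 ± 0.89 on the log2 scale (± SE) for Ccne2, E2f1 and Kif23, with adjusted p = 0.839, 0.845 and 0.798, so none was shown to differ. Cdkn1a, Mcm7, Tyms, Aurka, Birc5 and Nusap1 passed in neither.

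**Figure D1:**
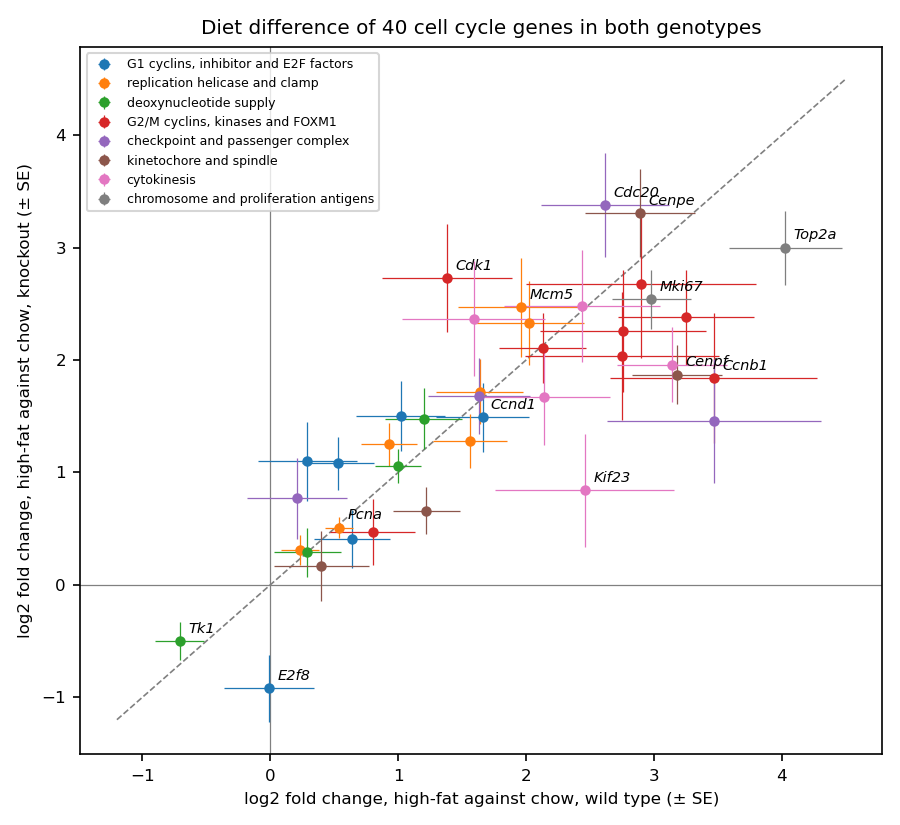
Log2 fold change of high-fat diet against chow in knockout livers (vertical) and wild-type livers (horizontal) for 40 of the 41 genes, with bars of 1 SE and colours by role; Bub1 is left out because it had no count in wild-type livers on chow. The dashed line marks equal change. Nearly all points lie in the upper right, some of them well off the line on either side, such as Ccnb1, Aurkb and Cdk1. Tk1 lies below 0 on both axes and E2f8 below 0 in knockout livers.

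The 2 proliferation antigens rose in both genotypes, although Top2a was kept only through the high-fat libraries. Mki67 (chr7:135689784-135716361, minus strand, mm10) encodes Ki-67, the standard tissue marker of cycling cells. It had 5.99, 6.6, 12.9, 10.9 and 9.09 CPM in knockout livers on high-fat diet, against 1.9, 1.46, 1.63 and 1.32 CPM in knockout livers on chow. Wild-type livers had 8.29, 13.5, 7.83 and 8.61 CPM on high-fat diet, against 1.27, 1.46 and 0.888 CPM on chow. Every high-fat library stood above every chow library of both genotypes. The log2 fold change was 2.54 ± 0.26 (adjusted p = 1.43e-06) in knockout livers and 2.98 ± 0.31 (adjusted p = 2.45e-06) in wild-type livers. Top2a (chr11:98992943-99024189, minus strand) encodes the topoisomerase that untangles sister chromatids before they part. Its level was 2.76, 3.2, 6.59, 5.23 and 3.93 CPM in knockout livers on high-fat diet, against 0.326, 0.474, 0.425 and 0.883 CPM on chow. In wild-type livers it was 3.97, 5.32, 3.92 and 3.83 CPM on high-fat diet, against 0.0941, 0.408 and 0.296 CPM on chow. Again no high-fat library overlapped a chow library. The log2 fold change was 3.0 ± 0.33 (adjusted p = 3.76e-06) in knockout livers and 4.03 ± 0.44 (adjusted p = 4.06e-06) in wild-type livers. In each genotype the highest high-fat library was the same for both antigens, library 3 in knockout and library 2 in wild type.

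**Figure D2:**
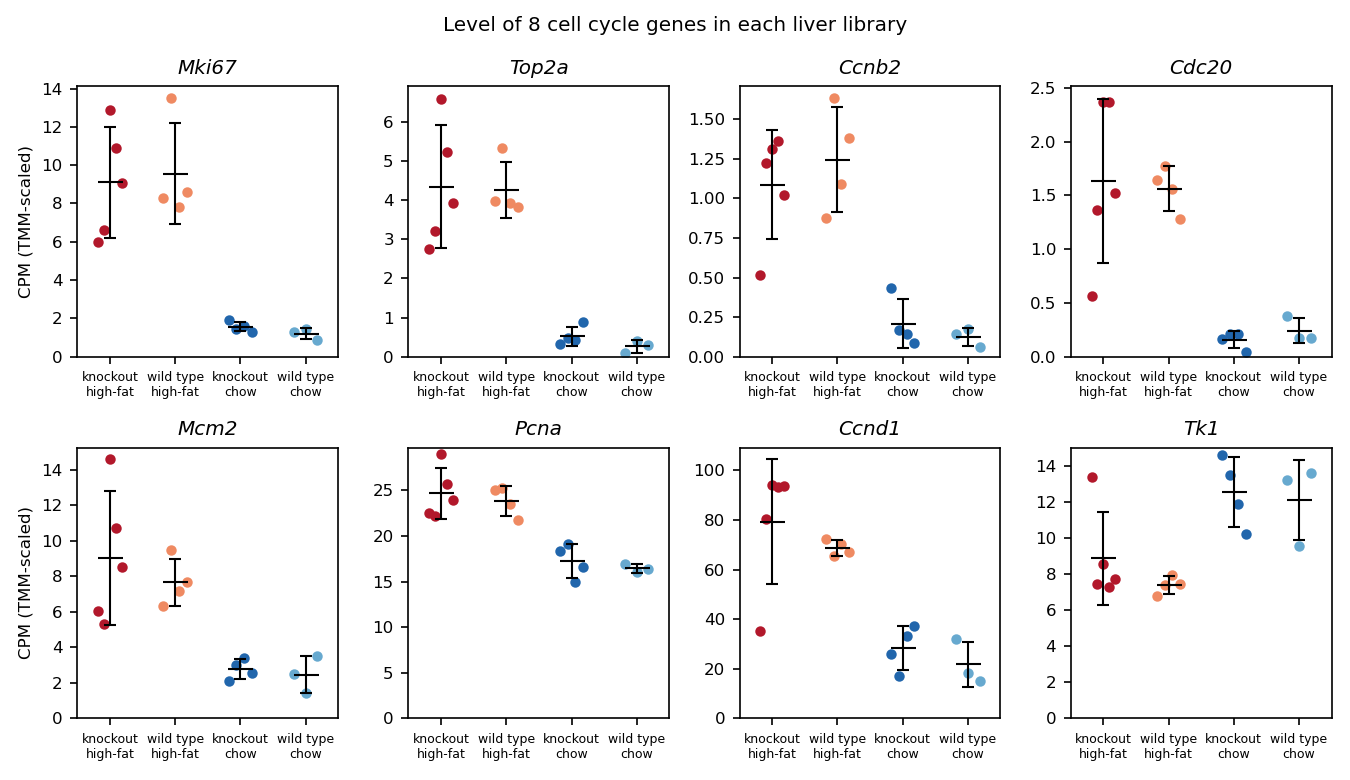
CPM (TMM-scaled, linear axis from 0) of 8 genes in each library, one point per library, with the group mean and SD as black bars; groups from left are knockout on high-fat diet (5), wild type on high-fat diet (4), knockout on chow (4) and wild type on chow (3). The high-fat groups lie above the chow groups except for Tk1, which is lower, and the single low Ccnd1 point on high-fat diet is knockout library 1 at 35.4 CPM.

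Promoters of Mki67, Top2a, Cenpf and Rrm1 are printed because, in wild-type livers on high-fat diet, these genes rose with the smallest p among those that hold CHR and CCAAT (Mki67 and Top2a) or, after these, an E2F word (Cenpf and Rrm1). Each runs from 250 bases before to 50 bases after the transcription start, 5′ to 3′ along the gene, from RefSeq (GRCm38.p6). Capitals mark 3 motifs on either strand. They are the CHR element TTTGAA (or TTCAAA), bound by the MuvB complexes of G2/M genes, the CCAAT box CCAAT (or ATTGG), and the E2F words GCGGGAA and GGCGGGA (or TTCCCGC and TCCCGCC), which can overlap each other.
Mki67, chr7:135716330-135716629, minus strand: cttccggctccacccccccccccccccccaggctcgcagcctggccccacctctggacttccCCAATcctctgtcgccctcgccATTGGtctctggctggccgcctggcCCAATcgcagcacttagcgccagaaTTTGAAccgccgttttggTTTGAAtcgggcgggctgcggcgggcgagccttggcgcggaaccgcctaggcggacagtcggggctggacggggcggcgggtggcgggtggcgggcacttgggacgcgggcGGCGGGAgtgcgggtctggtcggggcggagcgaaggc
Top2a, chr11:99024140-99024439, minus strand: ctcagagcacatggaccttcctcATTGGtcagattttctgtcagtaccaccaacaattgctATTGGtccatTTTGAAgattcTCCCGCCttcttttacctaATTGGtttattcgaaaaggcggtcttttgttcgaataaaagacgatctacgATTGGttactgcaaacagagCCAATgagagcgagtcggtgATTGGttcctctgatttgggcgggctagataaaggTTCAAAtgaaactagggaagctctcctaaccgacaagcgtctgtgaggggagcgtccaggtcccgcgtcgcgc
Cenpf, chr1:189688037-189688336, minus strand: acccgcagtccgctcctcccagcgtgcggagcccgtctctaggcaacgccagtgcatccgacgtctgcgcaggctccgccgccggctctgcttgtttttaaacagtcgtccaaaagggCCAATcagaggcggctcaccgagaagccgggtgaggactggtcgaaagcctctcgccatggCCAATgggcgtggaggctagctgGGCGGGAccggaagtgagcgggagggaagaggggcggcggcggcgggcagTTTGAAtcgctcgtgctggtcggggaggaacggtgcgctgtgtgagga
Rrm1, chr7:102441445-102441744, plus strand: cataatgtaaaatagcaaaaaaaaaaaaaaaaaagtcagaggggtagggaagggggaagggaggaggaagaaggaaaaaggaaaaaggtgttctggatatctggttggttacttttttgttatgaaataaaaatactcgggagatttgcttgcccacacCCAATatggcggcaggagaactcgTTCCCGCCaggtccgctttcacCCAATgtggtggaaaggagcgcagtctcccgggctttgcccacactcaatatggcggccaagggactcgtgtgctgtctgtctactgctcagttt
Mki67, Top2a and Cenpf each hold a CHR match, and all 4 hold CCAAT and E2F matches. Promoters were matched for 34 of the 41 genes. A CCAAT match was present in 26 of the 34 (76.5%), against 41.1% of 27025 genes with a promoter in the table. CHR was matched in 16 (47.1%), against 20.2%, and all 16 also held CCAAT, a pair found in 8.97% of the 27025. An E2F word was matched in 11 (32.4%), against 14.9% of the 27025 and 25.8% of the tested genes with a promoter. Of the 26 genes with CCAAT, 22 rose in knockout livers and 23 in wild-type livers. Of the 8 without it, 3 rose in knockout livers and 2 in wild-type livers. The 8 were Birc5, Ccne1, Cdkn1a, E2f1, Melk, Nusap1, Tk1 and Tyms. Of the 16 with CHR, 13 rose in knockout livers and 14 in wild-type livers, and of the 18 without it 12 rose in knockout livers and 11 in wild-type livers. The filter bears on these splits, because 12 of the 26 genes with CCAAT and 1 of the 8 without it were kept only through the high-fat libraries, and so were 9 of the 16 with CHR and 4 of the 18 without it. Among genes that the chow libraries keep, 11 of 14 with CCAAT rose in each genotype, and of 7 without it 2 rose in knockout livers and 1 in wild-type livers. Likewise 5 of 7 with CHR rose in each genotype, and of 14 without it 8 rose in knockout livers and 7 in wild-type livers. These shares describe letters in a window and were not tested.

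Among the 6 genes of the G1 step, 4 rose and 1 fell in knockout livers (median log2 fold change 1.09), and 2 rose and none fell in wild-type livers (median 0.58). Ccnd1 (chr7:144929931-144939925, minus strand) encodes cyclin D1, the cyclin that links growth signals to Rb. It was measured at 35.4, 80.3, 94.3, 93.2 and 93.7 CPM in knockout livers on high-fat diet, against 25.9, 17.2, 33.2 and 37.3 CPM in knockout livers on chow. For wild type the values were 72.5, 65.5, 70.4 and 66.9 CPM on high-fat diet, against 32, 18.3 and 15 CPM on chow. The knockout high-fat library 1 fell within the chow range, and the other high-fat libraries lay above every chow library. Its log2 fold change was 1.49 ± 0.31 (adjusted p = 0.00234) in knockout livers and 1.66 ± 0.36 (adjusted p = 0.00355) in wild-type livers. Per kilobase of exon, Ccnd1 had the highest mean level of the 41 on high-fat diet, 16.9 CPM per kb in knockout livers and 14.6 in wild-type livers. On chow its means were 6.03 CPM per kb in knockout livers and 4.62 in wild-type livers, below the clamp gene Pcna, at 7.18 and 6.85.

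Cyclin E genes, whose products activate Cdk2 at the start of S phase, were expressed at low levels. Ccne1 had 1.59, 2.11, 2.28, 1.57 and 2.45 CPM in knockout livers on high-fat diet, against 0.869, 0.905, 0.708 and 0.353 CPM on chow. Wild-type values were 1.68, 1.5, 1.64 and 1.33 CPM on high-fat diet, against 1.27, 0.408 and 0.533 CPM on chow. No high-fat library overlapped the chow libraries of its genotype. The change was 1.5 ± 0.31 (adjusted p = 0.00114) on the log2 scale in knockout livers and 1.02 ± 0.35 (adjusted p = 0.037) in wild-type livers. The wild-type call did not hold without wild-type high-fat library 1, 2 or 3 or wild-type chow library 2 or 3, where adjusted p was between 0.0602 and 0.168. Ccne2 had 2.39, 2.18, 3.79, 1.78 and 1.85 CPM in knockout livers on high-fat diet, against 1.63, 0.948, 0.991 and 0.927 CPM on chow. In wild type it had 1.64, 3.03, 0.969 and 1.59 CPM on high-fat diet, against 2.31, 1.05 and 1.07 CPM on chow. The groups were separate in knockout and overlapped in wild type. Its log2 fold change was 1.1 ± 0.35 (adjusted p = 0.0199) in knockout livers, where adjusted p was 0.0587 to 0.0634 without high-fat library 3 or chow library 2 or 4, and 0.29 ± 0.39 (adjusted p = 0.616) in wild-type livers.

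The inhibitor and the E2F factors did not move as one. Cdkn1a encodes p21, an inhibitor of cyclin-dependent kinases induced by p53. Its values were 10.1, 13.9, 18.3, 22.9 and 11.5 CPM in knockout livers on high-fat diet, against 17.3, 7.11, 11.5 and 10.6 CPM on chow. Wild-type livers showed 16, 18.2, 17.5 and 18.2 CPM on high-fat diet, against 12.3, 7.51 and 13.8 CPM on chow. The knockout groups overlapped and the wild-type groups did not. Neither difference passed, at 0.41 ± 0.26 (adjusted p = 0.247) in knockout livers and 0.64 ± 0.30 (adjusted p = 0.125) in wild-type livers on the log2 scale. In a fit of the wild-type libraries alone, Cdkn1a passed (0.65, adjusted p = 0.0186). E2f1, an activating E2F, had 4.73, 3.4, 7.1, 5.48 and 3.44 CPM in knockout livers on high-fat diet, against 2.17, 2.41, 2.41 and 2.16 CPM on chow. In wild-type livers E2f1 had 4.4, 3.16, 4.67 and 3.77 CPM on high-fat diet, against 3.95, 1.75 and 2.54 CPM on chow. High-fat libraries were all above chow in knockout and overlapped chow in wild type. The log2 fold change was 1.08 ± 0.24 (adjusted p = 0.00249) in knockout livers and 0.53 ± 0.28 (adjusted p = 0.165) in wild-type livers, where it passed without chow library 1 (adjusted p = 0.0376).

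E2f8 (chr7:48866429-48881596, minus strand) encodes an atypical E2F that represses target genes and is known in mouse liver for promoting polyploid hepatocytes. It was at 5.48, 3.74, 3.34, 4.53 and 5.75 CPM in knockout livers on high-fat diet, against 8.86, 12.9, 4.25 and 8.21 CPM on chow. Wild-type livers were at 4.78, 7.65, 2.27 and 4.09 CPM on high-fat diet, against 4.61, 4.89 and 4.85 CPM on chow. The chow knockout libraries 1, 2 and 4 were the 3 highest of all 16, and the diet groups overlapped in both genotypes. It fell in knockout livers, with a log2 fold change of -0.92 ± 0.30 (adjusted p = 0.0248), and was -0.01 ± 0.35 (adjusted p = 0.981) in wild-type livers. The fall was not called without knockout high-fat library 2 or 3 or knockout chow library 1 or 2, where adjusted p was between 0.054 and 0.114. Exons of E2f8 overlap those of Gm2788 on the opposite strand. Gm2788 averaged 9.94 ± 3.30 CPM in knockout livers on high-fat diet (SD, n = 5) and 15.2 ± 7.37 CPM in knockout livers on chow (n = 4). No source used here says whether counting took account of strand, so reads of such pairs may be shared. Genes that rose have such neighbours too. Exosc9 beside Ccna2, Ints8 beside Ccne2, Elovl1 beside Cdc20, Cdc23 beside Kif20a and Rccd1 beside Prc1 lie on the opposite strand with more counts than the gene itself. Of these 5, Elovl1 rose in knockout livers (0.40 ± 0.12 on the log2 scale, adjusted p = 0.0142), and the other 4 passed in neither genotype.

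The replication genes rose together. Of the 7 genes for the helicase and clamp, 6 rose in each genotype, with a median log2 fold change of 1.28 in knockout livers and 1.56 in wild-type livers. Mcm2 (chr6:88883474-88898780, minus strand), a helicase subunit, had 6.04, 5.31, 14.6, 10.7 and 8.53 CPM in knockout livers on high-fat diet, against 2.12, 3.02, 3.4 and 2.56 CPM on chow. Its wild-type values were 6.34, 9.46, 7.16 and 7.7 CPM on high-fat diet, against 2.49, 1.4 and 3.49 CPM on chow. No diet groups overlapped, and knockout high-fat library 3 was the highest. The log2 fold change of Mcm2 was 1.72 ± 0.29 (adjusted p = 0.000274) in knockout livers and 1.64 ± 0.34 (adjusted p = 0.00173) in wild-type livers. Mcm5 had 1.64, 1.91, 4.34, 4.99 and 3.3 CPM in knockout livers on high-fat diet, against 0.598, 0.302, 1.2 and 0.397 CPM on chow. For the wild-type livers Mcm5 had 1.72, 4.56, 2.57 and 2.34 CPM on high-fat diet, against 0.847, 0.466 and 0.828 CPM on chow. These groups were also separate, and the change was 2.47 ± 0.44 (adjusted p = 0.000379) in knockout livers and 1.96 ± 0.49 (adjusted p = 0.0061) in wild-type livers on the log2 scale. The other subunits that rose were Mcm6 (2.33 ± 0.37 in knockout and 2.02 ± 0.43 in wild type, log2 ± SE), Mcm3 (1.28 ± 0.24 and 1.56 ± 0.29) and Mcm4 (1.25 ± 0.19 and 0.93 ± 0.22).

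Mcm7 was the helicase subunit that did not pass, at 0.31 ± 0.13 (adjusted p = 0.0841) in knockout livers and 0.23 ± 0.15 (adjusted p = 0.284) in wild-type livers on the log2 scale. It passed in knockout livers without high-fat library 1, which stands apart (0.39, adjusted p = 0.0305). Its exons overlap Cops6 and Ap4m1 on the opposite strand and it hosts microRNA genes. Cops6, the neighbour with the most counts, averaged 41.7 ± 3.76 CPM in knockout livers on high-fat diet and 65.6 ± 4.57 CPM on chow, and 44.8 ± 0.827 CPM in wild-type livers on high-fat diet and 65.2 ± 3.14 CPM on chow (SD, n = 5, 4, 4 and 3). Cops6 fell, by 0.66 and 0.54 on the log2 scale in knockout and wild-type livers, and its part in the Mcm7 value was not tested. Pcna (chr2:132249162-132253314, minus strand) encodes the sliding clamp that holds DNA polymerase on its template. It had 22.5, 22.2, 29, 25.7 and 23.9 CPM in knockout livers on high-fat diet, against 18.4, 19.1, 14.9 and 16.6 CPM on chow. Pcna in wild-type livers was at 25, 25.3, 23.5 and 21.7 CPM on high-fat diet, against 16.9, 16 and 16.4 CPM on chow. The diet groups did not overlap, although the change was small. It was 0.51 ± 0.09 (adjusted p = 0.000454) in knockout livers and 0.54 ± 0.11 (adjusted p = 0.00124) in wild-type livers. A pseudogene row, Pcna-ps2, carried 3694 counts, so reads may be split between the copies.

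Deoxynucleotide supply was divided. Rrm1 and Rrm2, the subunits of ribonucleotide reductase, rose, with log2 fold changes of 1.06 ± 0.15 and 1.48 ± 0.27 in knockout livers and 1.00 ± 0.18 and 1.20 ± 0.30 in wild-type livers (± SE). Tyms, which makes thymidylate, did not pass, at 0.29 ± 0.22 (adjusted p = 0.333) in knockout livers and 0.29 ± 0.26 (adjusted p = 0.432) in wild-type livers. Tk1 (chr11:117815526-117826092, minus strand), the cytosolic thymidine kinase of the salvage pathway, fell. Its level was 13.4, 7.45, 8.53, 7.26 and 7.73 CPM in knockout livers on high-fat diet, against 14.6, 13.5, 11.9 and 10.2 CPM on chow. Wild-type livers gave 6.8, 7.37, 7.96 and 7.44 CPM on high-fat diet, against 13.2, 9.55 and 13.6 CPM on chow. Only the knockout high-fat library 1 reached the chow range. The log2 fold change was -0.5 ± 0.17 (adjusted p = 0.0269) in knockout livers and -0.71 ± 0.19 (adjusted p = 0.00979) in wild-type livers. In knockout livers the call was lost without high-fat library 2, 3, 4 or 5 or chow library 1 or 2, with adjusted p between 0.0533 and 0.0935. Tk1 exons overlap Afmid on the opposite strand, which held 27730 counts in all beside 3601 for Tk1. Afmid averaged 62.6 ± 17.2 CPM in knockout livers on high-fat diet and 103 ± 12.5 CPM on chow, and 55.3 ± 5.12 CPM in wild-type livers on high-fat diet and 103 ± 10.5 CPM on chow (SD). It fell by 0.72 and 0.90 on the log2 scale in knockout and wild-type livers, and its part in the Tk1 value was not tested.

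Of the 8 genes for G2/M cyclins, kinases and FOXM1, 7 rose in each genotype, with a median log2 fold change of 2.19 in knockout livers and 2.76 in wild-type livers. Of these 8, 5 were kept only through the high-fat libraries. Of the 3 that the chow libraries keep, 2 rose in each genotype (median 2.14 in knockout livers and 1.41 in wild-type livers). Cdk1 is the kinase of mitotic entry. It had 1.78, 1.12, 3.22, 2.69 and 2.48 CPM in knockout livers on high-fat diet, against 0.38, 0.689, 0.0708 and 0.132 CPM on chow. Cdk1 in wild-type livers had 1.49, 2.02, 1.47 and 2.23 CPM on high-fat diet, against 0.235, 0.699 and 1.18 CPM on chow. The diet groups were separate in both genotypes. The change was 2.73 ± 0.48 (adjusted p = 0.000319) in knockout livers and 1.38 ± 0.51 (adjusted p = 0.0479) in wild-type livers. The wild-type call was lost without knockout high-fat library 4 or 5, any of the 4 wild-type high-fat libraries, knockout chow library 1 or wild-type chow library 1 or 2, with adjusted p between 0.0518 and 0.199. The difference between genotypes in its diet effect was 1.35 ± 0.71 (log2 ± SE, adjusted p = 0.793).

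B-type cyclins, the partners of Cdk1, were near the floor of counting on chow. Ccnb2 had 0.515, 1.22, 1.31, 1.36 and 1.02 CPM in knockout livers on high-fat diet, against 0.435, 0.172, 0.142 and 0.0883 CPM on chow. It had 0.879, 1.63, 1.09 and 1.38 CPM in wild-type livers on high-fat diet, against 0.141, 0.175 and 0.0592 CPM on chow. Every high-fat library was above every chow library, and the log2 fold change was 2.38 ± 0.42 (adjusted p = 0.000315) in knockout livers and 3.25 ± 0.53 (adjusted p = 0.000198) in wild-type livers. Ccnb1 had 0.328, 0.272, 0.88, 0.663 and 0.661 CPM in knockout livers on high-fat diet, against 0.326, 0.0431, 0.142 and 0.132 CPM on chow. It showed 0.841, 0.80, 0.505 and 0.478 CPM in wild-type livers on high-fat diet, against 0, 0 and 0.178 CPM on chow. Knockout groups overlapped, and 2 of the 3 wild-type chow libraries had no count. Summed over libraries, Ccnb1 was 12.5-fold higher on high-fat diet in wild type (95% counting interval 4.09 to 62.1, from 66 against 3 counts). In knockout livers its log2 fold change was 1.84 ± 0.58 (adjusted p = 0.0209), which was not called without high-fat library 3 or chow library 2 or 4 (adjusted p between 0.0539 and 0.076). Rows for the pseudogenes Ccnb1-ps (90 counts beside 165 for Ccnb1) and Ccnb2-ps (341 beside 305 for Ccnb2) leave the split of reads uncertain.

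Ccna2, the S and G2 cyclin, rose by 2.11 ± 0.31 in knockout livers and 2.13 ± 0.34 in wild-type livers (log2 ± SE). The polo-like kinase gene Plk1 rose by 2.26 ± 0.54 and 2.76 ± 0.65, and Foxm1, a transcription factor of G2/M genes, by 2.04 ± 0.57 and 2.75 ± 0.76. Without wild-type chow library 1, Foxm1 had adjusted p = 0.051 in wild type. Melk, a kinase of proliferating cells, had 0.374, 0.34, 0.729, 0.384 and 0.364 CPM in knockout livers on high-fat diet, against 0.217, 0, 0 and 0.0442 CPM on chow. Melk in wild type was at 0.306, 0.243, 0.211 and 0.478 CPM on high-fat diet, against 0.047, 0.0582 and 0 CPM on chow. Groups did not overlap, and the wild-type chow livers held 2 counts in all. From counts, Melk was 8.23-fold higher on high-fat diet in wild type (2.08 to 71.2), and its log2 fold change in knockout was 2.68 ± 0.66 (adjusted p = 0.00431). It was not tested in 9 of the 16 fits that leave out a library, and its wild-type call was lost without chow library 1 or 3 (adjusted p = 0.0542 and 0.0794). Aurka, a spindle pole kinase, did not pass, at 0.47 ± 0.29 (adjusted p = 0.215) in knockout livers and 0.8 ± 0.33 (adjusted p = 0.0762) in wild-type livers. It passed in wild-type livers without chow library 3, which stands apart (1.22, adjusted p = 0.0234).

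Among the 5 genes of the spindle checkpoint and the chromosomal passenger complex, 4 rose in each genotype, with a median of 1.68 in knockout livers and 2.62 in wild-type livers. These 4 were kept only through the high-fat libraries, and Birc5, the gene that the chow libraries keep, did not pass. Cdc20 (chr4:118432901-118437352, minus strand) activates the ubiquitin ligase that starts anaphase. It stood at 0.562, 1.36, 2.37, 2.37 and 1.52 CPM in knockout livers on high-fat diet, against 0.163, 0.215, 0.212 and 0.0442 CPM on chow. Cdc20 in wild type stood at 1.64, 1.77, 1.56 and 1.28 CPM on high-fat diet, against 0.376, 0.175 and 0.178 CPM on chow. The groups were separate, and the log2 fold change was 3.38 ± 0.46 (adjusted p = 3.04e-05) in knockout livers and 2.62 ± 0.50 (adjusted p = 0.00071) in wild-type livers. Bub1, a checkpoint kinase, had 0.562, 0.578, 0.607, 0.453 and 0.463 CPM in knockout livers on high-fat diet, against 0.0543, 0.172, 0 and 0.177 CPM on chow. It had 0.191, 0.939, 0.379 and 0.0531 CPM in wild-type livers on high-fat diet, and a count of 0 in all 3 chow libraries. Against a floor of 3 counts over that group (0.0542 CPM), the high-fat wild-type livers had at least 7.95-fold higher Bub1. Library 2 held 27 of their 42 counts, without it the bound was 4.02-fold, and library 4, with 1 count, lay below the floor. In knockout the change was 2.2 ± 0.67 (adjusted p = 0.0194), and adjusted p was 0.0588 without chow library 1.

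Aurkb, the kinase of the passenger complex, had 0.234, 0.714, 1.24, 0.802 and 0.496 CPM in knockout livers on high-fat diet, against 0.435, 0.0431, 0.496 and 0.132 CPM on chow. It was found at 0.459, 0.835, 0.716 and 0.584 CPM in wild-type livers on high-fat diet, against 0.0941, 0.0582 and 0 CPM on chow. The groups overlapped in knockout and were separate in wild type. Counts gave a 12.1-fold higher level on high-fat diet in wild type (3.96 to 60.3, from 64 against 3 counts). In knockout the log2 fold change was 1.46 ± 0.55 (adjusted p = 0.0472). That call was lost without knockout high-fat library 2, 3 or 4, knockout chow library 2 or 4, any wild-type high-fat library or wild-type chow library 1 or 2, with adjusted p between 0.0502 and 0.147. The checkpoint kinase gene Bub1b rose by 1.68 ± 0.34 in knockout livers and 1.63 ± 0.40 in wild-type livers (log2 ± SE). Birc5, which encodes the passenger protein survivin, did not pass, at 0.77 ± 0.36 (adjusted p = 0.107) in knockout livers and 0.21 ± 0.39 (adjusted p = 0.725) in wild-type livers. Without chow library 3 it passed in knockout livers (1.11, adjusted p = 0.0319).

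For the kinetochore and spindle, 3 of 4 genes rose in each genotype, with a median of 1.26 in knockout livers and 2.05 in wild-type livers. Cenpe and Cenpf were kept only through the high-fat libraries. Of the 2 that the chow libraries keep, 1 rose in each genotype (median 0.44 in knockout livers and 0.84 in wild-type livers). Cenpe, the kinetochore motor that carries chromosomes to the spindle equator, had 1.08, 1.29, 1.76, 1.74 and 1.22 CPM in knockout livers on high-fat diet, against 0.109, 0.258, 0.0708 and 0.0883 CPM on chow. Cenpe in wild-type livers was at 1.34, 1.7, 1.01 and 1.43 CPM on high-fat diet, against 0.188, 0.0582 and 0.296 CPM on chow. All high-fat libraries exceeded all chow libraries, and the change was 3.31 ± 0.39 (adjusted p = 6.55e-06) in knockout livers and 2.89 ± 0.43 (adjusted p = 9.73e-05) in wild-type livers. Cenpf (chr1:189640606-189688086, minus strand), a large kinetochore protein, had 0.936, 1.6, 1.85, 1.71 and 1.59 CPM in knockout livers on high-fat diet, against 0.598, 0.388, 0.283 and 0.397 CPM on chow. It was at 1.72, 1.88, 1.43 and 1.7 CPM in wild-type livers on high-fat diet, against 0.188, 0.175 and 0.178 CPM on chow. No groups overlapped between diets, and the chow knockout libraries all lay above the chow wild-type libraries. The log2 fold change of Cenpf was 1.87 ± 0.26 (adjusted p = 3.86e-05) in knockout livers and 3.18 ± 0.35 (adjusted p = 4.58e-06) in wild-type livers. Kif11, the motor that separates the spindle poles, rose by 0.66 ± 0.21 in knockout livers and 1.22 ± 0.26 in wild-type livers. Its knockout call was lost without high-fat library 3 or 4 or chow library 3 or 4, with adjusted p between 0.0505 and 0.0912. Nusap1, a spindle-binding protein, did not pass, at 0.17 ± 0.31 (adjusted p = 0.714) in knockout livers and 0.4 ± 0.37 (adjusted p = 0.445) in wild-type livers.

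Cytokinesis genes rose in 4 of 5 cases in knockout livers (median 1.96) and in 5 of 5 in wild-type livers (median 2.44). Of these 5, 4 were kept only through the high-fat libraries, and Ect2, which the chow libraries keep, rose in both genotypes. Racgap1, which with Kif23 forms the centralspindlin complex of the midzone, had 0.749, 1.33, 2.4, 1.95 and 1.35 CPM in knockout livers on high-fat diet, against 0.38, 0.258, 0.567 and 0.442 CPM on chow. Racgap1 in wild-type livers was at 1.76, 2.19, 1.64 and 1.54 CPM on high-fat diet, against 0.188, 0.175 and 0.237 CPM on chow. The diet groups were separate, and the change was 1.96 ± 0.33 (adjusted p = 0.00022) in knockout livers and 3.14 ± 0.43 (adjusted p = 4.14e-05) in wild-type livers. Kif23 was 0.84 ± 0.50 (adjusted p = 0.21) in knockout livers, which did not pass, and rose by 2.46 ± 0.70 in wild-type livers, with adjusted p = 0.055 and 0.0618 without chow library 1 or 2. Prc1, which bundles midzone microtubules, had 0.374, 0.476, 1.52, 0.872 and 1.78 CPM in knockout livers on high-fat diet, against 0.217, 0.0862, 0.142 and 0.265 CPM on chow. Its wild-type levels were 0.879, 0.974, 0.674 and 0.691 CPM on high-fat diet, against 0.141, 0.116 and 0.178 CPM on chow. These groups did not overlap, and the log2 fold change was 2.48 ± 0.50 (adjusted p = 0.000935) in knockout livers and 2.44 ± 0.61 (adjusted p = 0.0056) in wild-type livers.

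Ect2, the exchange factor that activates RhoA at the cleavage furrow, had 0.796, 1.39, 4.55, 1.74 and 1.75 CPM in knockout livers on high-fat diet, against 0.543, 0.388, 0.354 and 0.309 CPM on chow. It was recorded at 1.53, 2.02, 1.47 and 2.28 CPM in wild-type livers on high-fat diet, against 1.03, 0.116 and 0.592 CPM on chow. Both pairs of groups were separate, and knockout high-fat library 3 was far above the rest. The change was 2.37 ± 0.51 (adjusted p = 0.00178) in knockout livers and 1.59 ± 0.56 (adjusted p = 0.0385) in wild-type livers. Without wild-type high-fat library 2 or 4 or wild-type chow library 2 or 3 the wild-type call was lost, with adjusted p between 0.0753 and 0.151. Kif20a, a midzone motor, rose by 1.67 ± 0.43 in knockout livers and 2.14 ± 0.52 in wild-type livers (log2 ± SE).

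**Figure D3:**
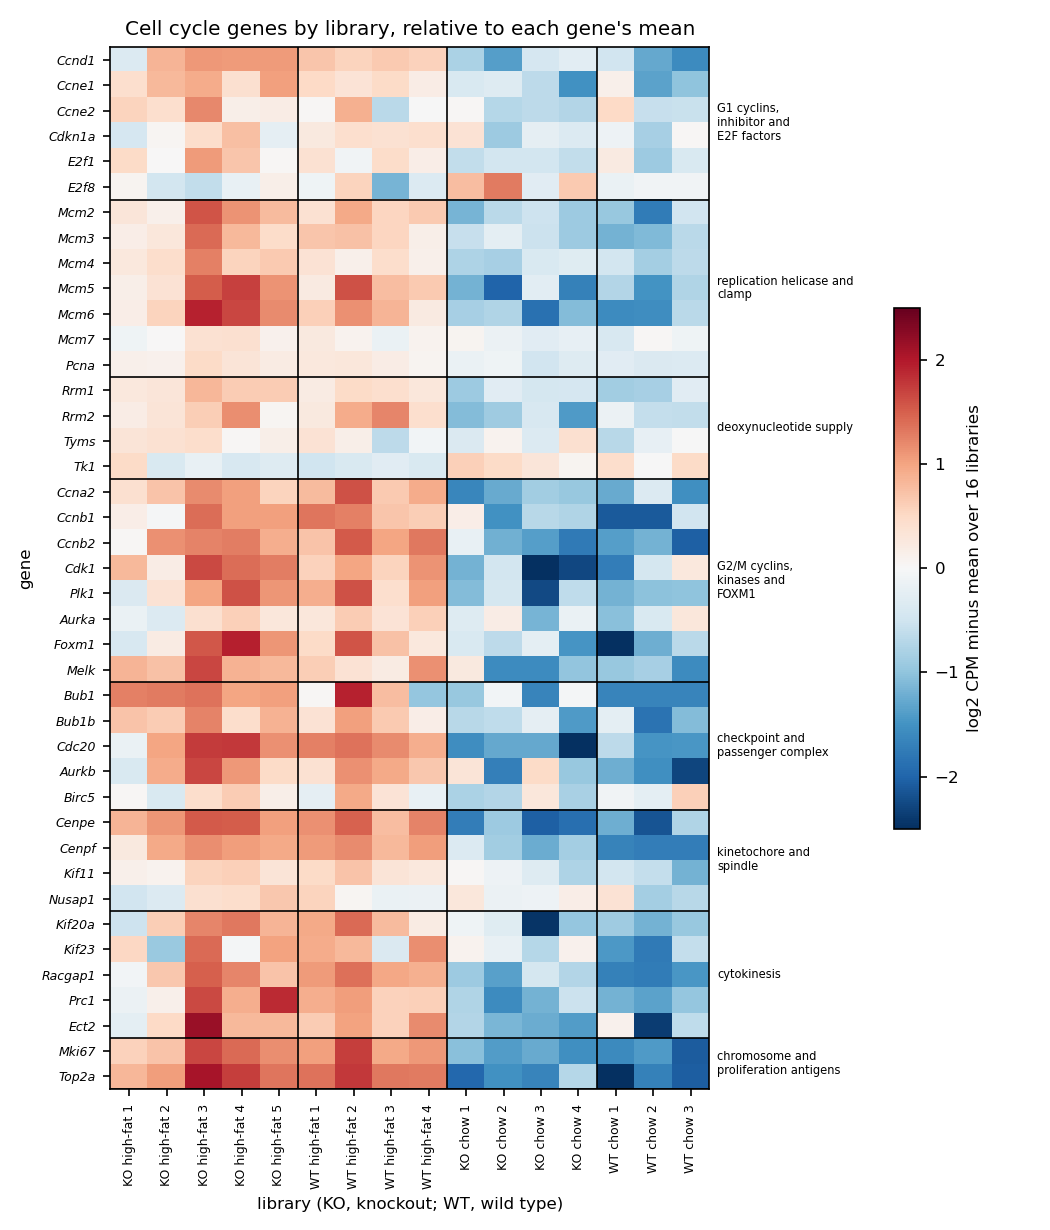
Log2 CPM of the 41 genes (rows, by role) in the 16 libraries (columns; KO, knockout; WT, wild type), as the difference from each gene's mean over all libraries, red for higher and blue for lower. The 9 high-fat columns are mostly red and the 7 chow columns mostly blue, with Tk1 running the other way in most libraries. E2f8 is highest in knockout chow libraries 1, 2 and 4 and shows no such diet pattern in wild type. Bub1 in wild type on chow is drawn at the floor set by a prior count of 2.

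The libraries of a group were not equally high. Among the knockout high-fat libraries, library 3 had the highest mean log2 CPM in all 8 role groups and the highest level for 24 of the 41 genes, while library 1 had the lowest mean in 7 of the 8 and the lowest level for 23 genes. Among the wild-type high-fat libraries, library 2 was highest in all 8 role groups and for 26 genes. Over all 41 genes the mean log2 CPM was 1.03, 1.21, 1.97, 1.73 and 1.54 in knockout livers on high-fat diet and 1.39, 1.75, 1.31 and 1.32 in wild-type livers on high-fat diet. On chow it was 0.30, 0.14, 0.01 and 0.03 in knockout livers and -0.04, -0.25 and 0.03 in wild-type livers. The lowest high-fat library therefore lay above the highest chow library. The filter bears on this gap, because 16 of the 41 genes were kept only through the high-fat libraries. The G1, helicase and clamp, and deoxynucleotide groups hold none of the 16. Their lowest high-fat means were 2.44, 2.64 and 2.68, and their highest chow means were 2.43, 1.96 and 2.5. Without both libraries that stand apart, 33 genes rose and 2 fell in knockout livers, and 29 rose and 1 fell in wild-type livers.

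Markers of other liver cells moved with the diet too. In bulk liver, fewer cells of a type and less RNA per cell cannot be told apart. The summed level of 15 Kupffer cell and macrophage markers ran from 421 to 776 CPM in knockout livers on high-fat diet, against 326 to 382 on chow, and from 436 to 795 CPM in wild-type livers on high-fat diet, against 175 to 350 on chow. Of these 15, 7 rose and 1 fell in knockout livers and 11 rose in wild-type livers. Lipid-associated macrophage markers (8) summed to 117 to 201 CPM in knockout livers on high-fat diet, against 31.2 to 45.1 on chow, and 153 to 302 CPM in wild-type livers on high-fat diet, against 36.3 to 58.1 on chow, and 7 of them rose in each genotype. Of these 8 lipid-associated macrophage markers the chow libraries keep 5, of which 5 rose in knockout livers and 4 in wild-type livers. Stellate cell and myofibroblast markers rose for 7 of 9 in knockout livers and 8 of 9 in wild-type livers.

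Hepatocyte markers went the other way. Of 11 tested, 6 fell in knockout livers and 8 in wild-type livers, and their sum ran from 68201 to 88226 CPM in knockout livers on high-fat diet, against 94516 to 108002 on chow, and from 70703 to 87301 CPM in wild-type livers on high-fat diet, against 95825 to 101618 on chow. Neutrophil markers rose for 1 of 4 in knockout livers and 4 of 4 in wild-type livers. Of the 3 that the chow libraries keep, 0 rose in knockout livers and 3 in wild-type livers. Erythroid markers passed for none of 6 in knockout livers (4 had an unadjusted p under 0.05) and rose for 4 of 6 in wild-type livers, where 1 fell. Endothelial markers fell for 4 of 8 in knockout livers and rose for 3 of 8 in wild-type livers, and cholangiocyte markers rose for 2 of 5 in each. T and NK cell markers passed for none of 9 in knockout livers (0 had an unadjusted p under 0.05) and rose for 1 of 9 in wild-type livers. None of 5 B and plasma cell markers passed in edgeR's test in either genotype (1 and 2 had an unadjusted p under 0.05 in knockout and wild-type livers). The sums use only markers with a row in the deposited table, which were 11 of 12 for hepatocytes, 5 of 6 for neutrophils and all of the other lists. The part of these cells in the cell cycle result was not tested. Within the knockout high-fat group, library 3, the highest for the cell cycle genes, had a macrophage sum of 486 CPM, and library 1, the lowest, had 776 CPM. In the wild-type high-fat group, library 2, the highest, had 795 CPM, the largest of its group. That library also had the largest lipid-associated macrophage (302 CPM), cholangiocyte (223), erythroid (2160), endothelial (361), T and NK (6.05) and B and plasma cell (6.85) sums. Its neutrophil (8.31) and stellate cell (600) sums were not the largest. Hepatocyte sums were lowest of their group in wild-type library 2 (70703 CPM) and in knockout library 1 (68201 CPM).

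Other genes of the same processes were read from separate lists, chosen with earlier results of these data known. Of 38 tested mitosis genes outside the 41, 31 rose in knockout livers (median log2 fold change 1.99) and 26 in wild-type livers (median 1.64), and none fell. The filter bears on this list too, since the chow libraries keep 17 of the 38. Of these 17, 10 rose in knockout livers (median 0.72) and 9 in wild-type livers (median 0.76). Ttk, a checkpoint kinase, had the largest fitted change in each genotype. By counts it was 14.5-fold higher on high-fat diet in knockout livers (95% counting interval 4.77 to 71.7, from 79 against 3 counts) and 21-fold higher in wild-type livers (3.54 to 852, from 37 against 1). On the log2 scale (± SE), Hmmr, a spindle-assembly protein, rose by 3.47 ± 0.61 in knockout livers and 3.61 ± 0.70 in wild-type livers, and Nuf2, a kinetochore subunit, by 3.45 ± 0.68 and 2.65 ± 0.73. Kif18b, a motor that shortens microtubules, rose by 3.41 ± 0.50 in knockout livers and 2.38 ± 0.57 in wild-type livers, and Pbk, a mitotic kinase, by 2.28 ± 0.65 and 3.37 ± 0.86. Of 37 genes of origin licensing, origin firing and the replication fork, 20 rose and 1 fell in knockout livers (median 0.63), and 16 rose and 1 fell in wild-type livers (median 0.60). Uhrf1, which brings DNA methylation to new strands, averaged 1.94 CPM in knockout livers on high-fat diet and 0.0569 CPM on chow, and 1.65 CPM in wild-type livers on high-fat diet and 0.0470 CPM on chow. Chaf1a, a histone chaperone of the fork, rose by 2.05 ± 0.27 in knockout livers and 2.04 ± 0.31 in wild-type livers.

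Regulators of the G1 step were read in the same way. Of 22 other genes of G1 cyclins, kinases, Rb and E2F, 6 rose and 1 fell in knockout livers (median 0.11), and 3 rose and 1 fell in wild-type livers (median 0.22). Over all genes tested 17.4% rose in knockout livers and 15.2% in wild-type livers, so the wild-type count was near that share. Rbl1, the Rb relative p107, rose by 2.31 ± 0.29 in knockout livers and 2.10 ± 0.34 in wild-type livers, and E2f2, an activating E2F, by 1.58 ± 0.29 and 1.55 ± 0.34. Ccnd2 rose by 0.42 ± 0.11 and 0.89 ± 0.13, while Ccnd3 fell by 0.39 on the log2 scale in knockout livers and 0.40 in wild-type livers. Myc, a growth-promoting factor, rose by 1.39 ± 0.44 in knockout livers and was 0.75 ± 0.47 in wild-type livers (adjusted p = 0.245). Among 5 tested inhibitors of cyclin-dependent kinases, Cdkn2c (p18) rose by 1.24 ± 0.29 in knockout livers and 1.39 ± 0.33 in wild-type livers, and Cdkn3, a phosphatase, also rose in both. By counts Cdkn3 was 9.53-fold higher on high-fat diet in knockout livers (3.08 to 47.7, from 52 against 3). In wild-type livers it was 7-fold higher (2.22 to 35.5, from 37 against 3). The chow libraries keep 4 of the 5, of which 1 rose in each genotype.

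Genes that respond to p53 rose in number as well: 11 of 21 rose and 1 fell in knockout livers (median 0.76), and 10 rose and 1 fell in wild-type livers (median 0.58). Eda2r, which encodes a receptor, rose by 2.73 ± 0.30 in knockout livers and 2.73 ± 0.37 in wild-type livers. Tnfrsf10b, the TRAIL receptor, rose by 2.58 ± 0.31 and 2.05 ± 0.34, and Phlda3, an inhibitor of Akt, by 2.15 ± 0.33 and 1.92 ± 0.38. Gadd45a, a growth-arrest gene, rose by 2.30 ± 0.20 in knockout livers and 1.38 ± 0.22 in wild-type livers. Pmaip1, which encodes Noxa, was 0.84 ± 0.32 in knockout livers (adjusted p = 0.0504) and rose by 2.09 ± 0.41 in wild-type livers. Homologous recombination and fork repair genes rose for 7 of 14 in knockout livers (median 1.17) and 2 of 14 in wild-type livers (median 0.90). Of all genes tested, 17.4% and 15.2% rose, so the wild-type count was near that share. The chow libraries keep 6 of the 14, of which 3 rose in knockout livers (median 0.63) and 1 in wild-type livers (median 0.47). Among all genes kept this way, 17.7% and 15% rose. Fanca, of the Fanconi complex, rose by 2.47 ± 0.51 in knockout livers and 2.29 ± 0.64 in wild-type livers, and Chek2, a damage kinase, by 1.82 ± 0.31 and 1.22 ± 0.34.

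**Figure D4:**
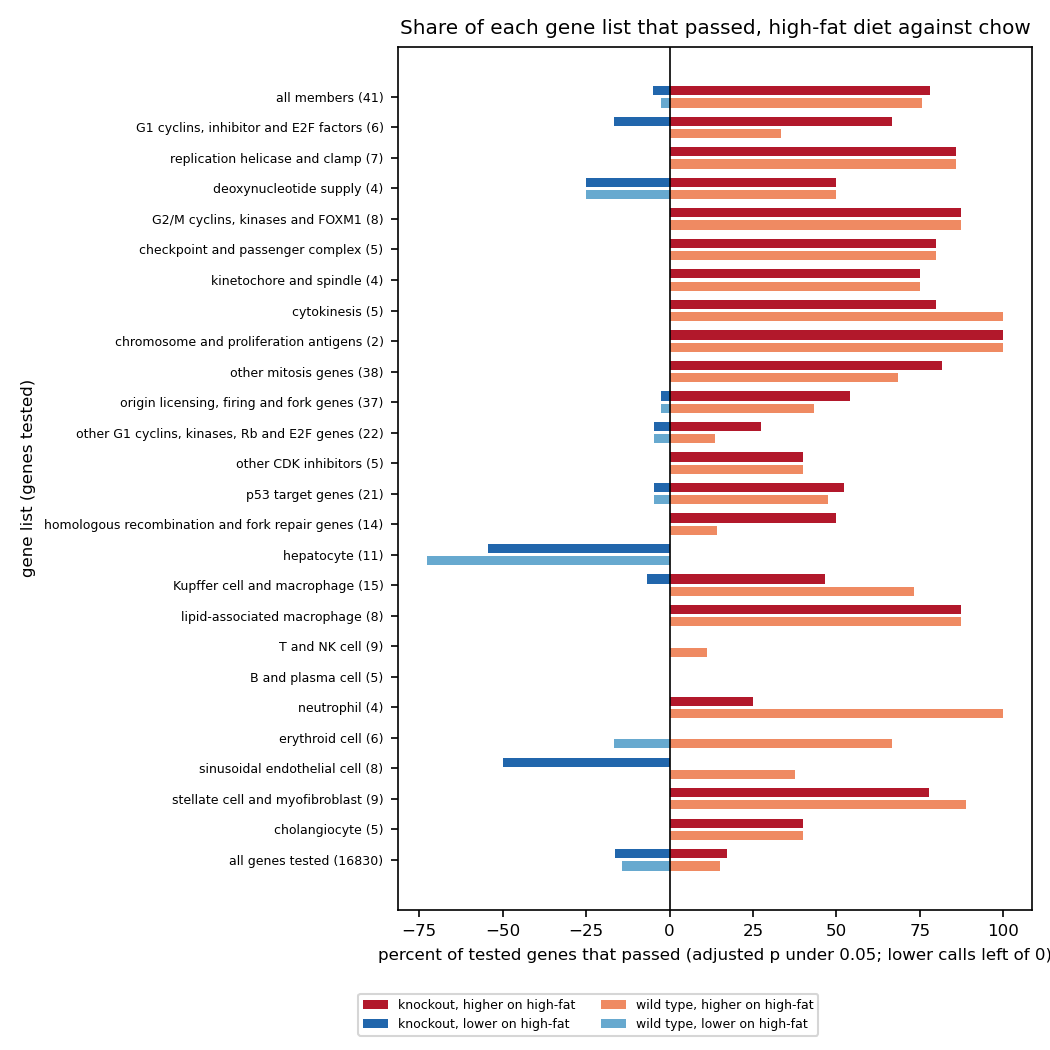
Percent of the tested genes of each list that passed an adjusted p of 0.05, high-fat diet against chow, with higher calls right of 0 and lower calls left, knockout above wild type in each row; the number of genes tested is in brackets. The bars for higher calls of the 41 genes and of their role groups reach past those of all genes tested (17.4% in knockout livers and 15.2% in wild-type livers), and the hepatocyte bars lie to the left. Of the 41 genes, 16 were kept only through the high-fat libraries.

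The knockout itself gave no call among the 41 genes. On high-fat diet 0 of 41 passed for knockout against wild type (0.00594% of all genes, 1 gene, passed), and 1 had an unadjusted p under 0.05, against 3.81% of all genes. On chow 0 of 41 passed (0.00594% of all genes), and 4 had an unadjusted p under 0.05, against 5.95%. For the mean over both diets 0 passed (0.0178% of all genes) and 2 had such a p, against 3.48%. The difference of the knockout effects between diets gave 0 passes (0% of all genes) and 1 such p, against 6.6%. DESeq2 and limma voom also gave 0 calls among the 41 in each of these 4 comparisons. Knockout values lay above wild type for 26 of 41 genes on high-fat diet (median log2 fold change 0.12), where 51.1% of all genes did, and for 30 of 41 on chow (median 0.18), where 50.1% did. Over the 25 genes that the chow libraries alone would keep, these medians were 0.19 on high-fat diet and 0.05 on chow. Knockout and wild-type libraries did not overlap for 0 of 41 genes on high-fat diet (1.24% of all genes) and for 2 on chow, Cenpf and Racgap1 (4.88%, against 5.62%).

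**Figure D5:**
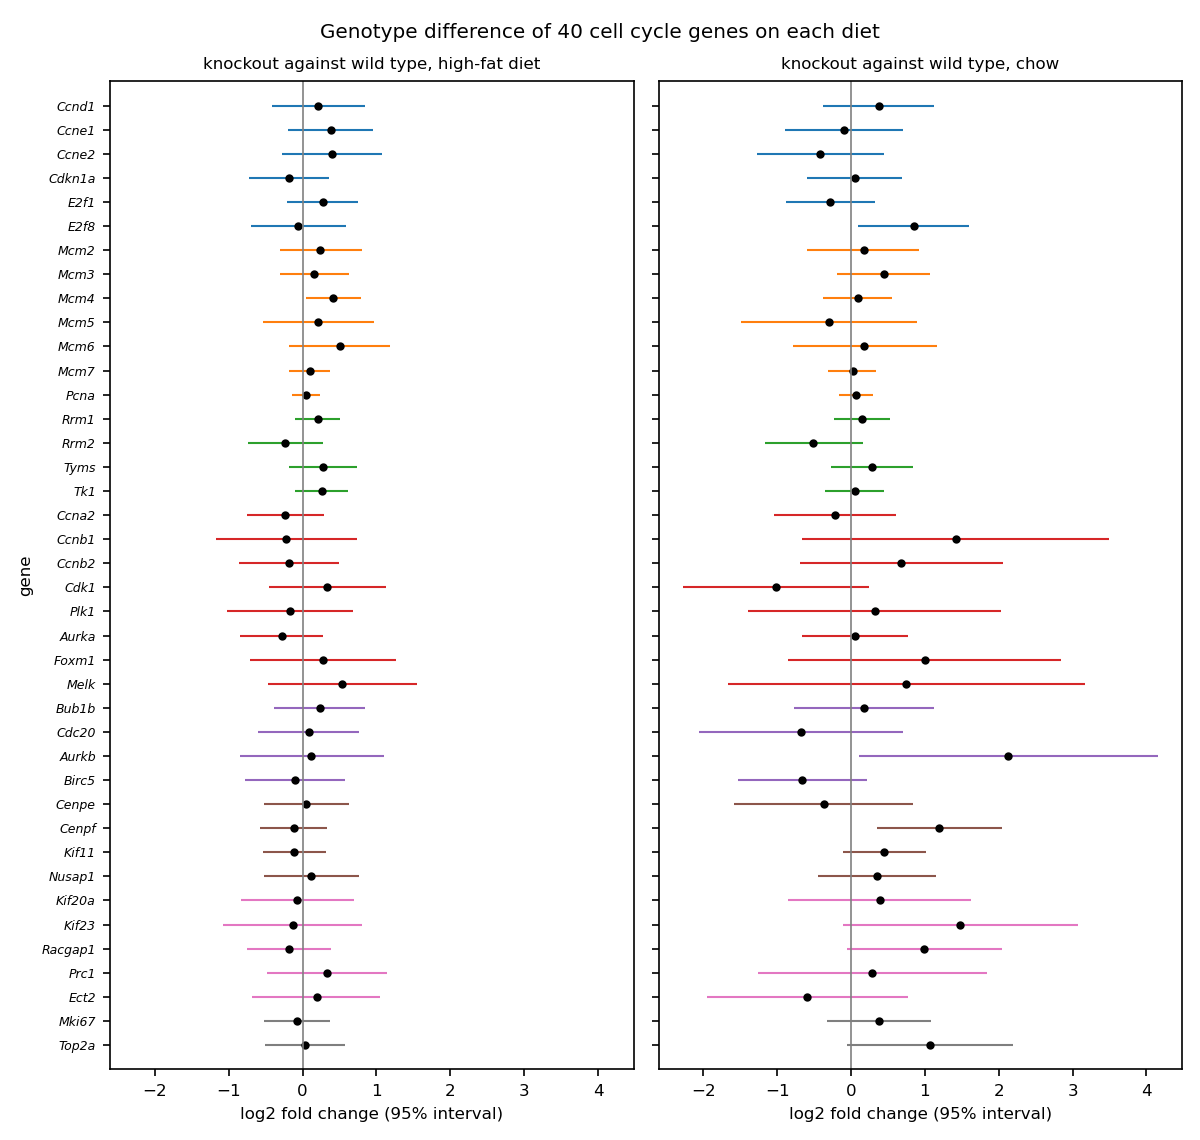
Log2 fold change of knockout against wild type with its 95% interval for 40 of the 41 genes, on high-fat diet (left) and chow (right), on the same scale, with colours by role; Bub1 is left out because it had no count in wild-type livers on chow. Most intervals cross 0 on both diets, they are mostly wider on chow, and Pcna has the narrowest on both.

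The 5 genes with the smallest p on high-fat diet were Mcm4 (0.41 ± 0.18), Mcm6 (0.50 ± 0.32), Tk1 (0.26 ± 0.17), Rrm1 (0.21 ± 0.15) and Ccne1 (0.38 ± 0.27), as log2 fold change ± SE of knockout over wild type, each with an adjusted p of 1. Mcm4 had 7.02, 7.89, 14, 8.62 and 9.25 CPM in knockout livers on high-fat diet and 7.45, 6.4, 7.96 and 6.32 CPM in wild-type livers on high-fat diet, and the groups overlapped. On chow, Cenpf had the smallest p (1.19 ± 0.40, adjusted p = 0.773). E2f8 followed (0.85 ± 0.35, adjusted p = 0.812), then Bub1, with 9 counts in knockout livers and 0 in wild-type livers. Against the same floor, the summed counts put Bub1 at least 2.12-fold higher in knockout livers on chow (adjusted p = 0.812 in edgeR's test). Knockout chow library 3 had a count of 0, and without library 2 or 4 the bound was 1.67- or 1.65-fold. Aurkb came next, at 4.47-fold by counts (1.32 to 23.6, from 19 against 3), and Top2a after it (1.07 ± 0.53, adjusted p = 0.846). Cenpf also led the difference between diets (-1.32 ± 0.46, adjusted p = 0.679), followed by Racgap1 (-1.18 ± 0.57), Bub1, E2f8 (-0.91 ± 0.47) and Cdk1 (1.35 ± 0.71). For the mean over both diets the leading genes were Bub1, Cenpf (0.54 ± 0.23), Aurkb, Rrm2 (-0.37 ± 0.20) and Top2a (0.55 ± 0.30).

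The precision of the knockout comparison differed by gene. On high-fat diet the 95% interval of the log2 fold change had a median half-width of 0.62 over the 41 genes, and it lay within 1 on either side of 0 for 29 of them. On chow the median half-width was 0.85, and 11 intervals lay within that range. For the difference of the knockout effects between diets the median half-width was 1.09, and 6 intervals lay within it. For Pcna on high-fat diet the interval was -0.15 to 0.24, and for Mki67 it was -0.52 to 0.37. Ccnd1, reported as a miR-33 target, was 0.21 (-0.42 to 0.84) on high-fat diet and 0.38 (-0.38 to 1.13) on chow. No gene of the other cell cycle, p53 or repair lists passed for knockout against wild type on either diet. Among the other reported targets, Cdk6 rose with diet by 0.30 ± 0.08 in knockout livers (adjusted p = 0.00761) and was 0.24 in wild-type livers (adjusted p = 0.0606), while Pim1 was -0.37 and -0.47 (adjusted p = 0.108 and 0.0843). Of the 4 genes with a seed match, Tk1 was 0.26 ± 0.17 on high-fat diet and 0.05 ± 0.19 on chow for knockout against wild type, Top2a 0.03 ± 0.26 and 1.07 ± 0.53, Ect2 0.19 ± 0.41 and -0.59 ± 0.65, and Tyms 0.28 ± 0.22 and 0.28 ± 0.26 (log2 ± SE).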

How the data were processed

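Total RNA of mouse liver was sequenced in 16 libraries. The labels' protocol names a small RNA library kit and fewer cycles than the read length, so the library type is uncertain. Per the labels' protocols, trimmed reads went through TopHat2 and Cuffdiff, with build mm10 per the submitters' processing notes. Their versions and any use of strand are not given in the sources used. In the deposited table are estimated counts per gene, neither scaled to depth nor to length, of which 32.8% to 37.9% per library were whole (tolerance 0); how the authors made them is not stated. Its smallest row total was 10. Limits of 39 of the 41 genes equal GENCODE M21. Of the 41, 14 share exon sequence with another gene, 12 of them with one on the opposite strand.

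Estimated counts were rounded to whole numbers, filtered with filterByExpr on the 4 groups (16830 genes; all 41 genes described here passed), scaled by TMM and fitted in edgeR 4.0.16 (R 4.3.3) with a robust quasi-likelihood model of 4 group means on 12 residual degrees of freedom. All tests are two-sided; p-values were adjusted by the Benjamini-Hochberg method over all genes, and 0.05 was the threshold. An SE is the absolute log2 fold change over the square root of F. Log2 CPM used a prior count of 2. Where a group of libraries held 3 counts or fewer, summed counts give a ratio with an exact 95% interval, or a bound at 3 counts; both cover counting error only. Groups come from the genotype and diet labels; replicate numbers follow accession order. Alternatives used DESeq2 1.42.0, voom in limma 3.58.1, other scalings and filters, and fits without single libraries.

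The genes and lists were chosen with earlier results of these data known. Genes were named with each library's values if they were among the 10 largest changes of either diet comparison, in the G1 list, or Mki67, Top2a, Cdk1, Pcna or Mcm2; Tk1 was added after its values were seen. In the knockout comparisons the 5 smallest p were named. Mcm4 on high-fat diet and the overlapping neighbour genes were likewise given after their values were seen. From each other list up to 4 of the largest changes that passed were eligible. The letters searched for the miR-33 seed were corrected to its reverse complement. Simulated counts of the 16830 genes were used to test the fit. In each comparison 67 genes were changed 1.5-fold, 67 were changed 2-fold and 66 were changed 4-fold. The wild-type diet comparison of the data called far more genes, 2564 higher and 2382 lower, so its own recovery was not measured. In wild type, for the diet comparison, the fit recovered 28.4% of genes changed 1.5-fold, 50.7% at 2-fold and 84.8% at 4-fold, and called 13 unchanged genes. For knockout against wild type the shares were 32.8%, 67.2% and 87.9% on high-fat diet (6 unchanged genes called) and 31.3%, 70.1% and 81.8% on chow (15 called). For the difference of the knockout effects between diets they were lower, at 8.96%, 37.3% and 80.3% (3 called). The knockout comparisons of the data called far fewer genes than the simulated ones, 1 on each diet and 0 for the difference between diets. Where calls are few the adjustment asks for a smaller p, so the recovery of these comparisons was not measured either. The shares are over changed genes among all 16830 and were not taken over the cell cycle genes alone.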

Additional observations from a re-analysis of the deposited data

Results flagged for a closer look

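Of 123 sets of CPM values from 4 or 5 libraries of a group, 9 had a library set apart from the rest by a gap that takes up an unusually large share of the group's range. Chance alone gives about 1 such gap in 20 sets. The knockout high-fat library 1, which stands apart on a principal component, gave 3 of them. Ccnd1 was lowest there, at 35.4 CPM with the nearest library at 80.3 CPM, a gap of 0.761 of the range. Tk1 was highest there, at 13.4 CPM beside 8.53 CPM (0.794), and Cenpf lowest, at 0.936 CPM beside 1.59 CPM (0.71). The knockout high-fat library 3 was highest for Melk, at 0.729 CPM beside 0.384 CPM (0.888), and for Ect2, at 4.55 CPM beside 1.75 CPM (0.746). The wild-type high-fat library 2 was highest for Mki67, at 13.5 CPM beside 8.61 CPM (0.864), and for Top2a, at 5.32 CPM beside 3.97 CPM (0.9). On chow, knockout library 1 was highest for Ccne2, at 1.63 CPM beside 0.991 CPM (0.909), and knockout library 3 for Birc5, at 1.13 CPM beside 0.517 CPM (0.952). The cause of these gaps was not tested.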

How the results depend on the processing

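Across the other scalings, tools and filters, the fit of only the groups compared and the fit without both libraries that stand apart, 27 to 33 of the genes rose with high-fat diet in knockout livers and 26 to 31 in wild-type livers, and with 1 library left out the counts were 27 to 33 and 27 to 31. The lowest of these, 27 and 26, came from the stricter filter, which tested 36 of the 41. Keeping only genes that the chow libraries retain, a choice made after seeing the data, gave 17 and 15 of 25. The count that fell in knockout livers was 2, but 1 in the fit of only the groups compared and 0 to 2 with 1 library left out; in wild-type livers it was 1 throughout. No knockout comparison called any of the 41 under any alternative run. In the fit of only the groups compared, Aurkb (adjusted p = 0.0748) and Tk1 (0.0526) in knockout livers and Ccne1 (0.0623) in wild-type livers missed the threshold, and without both libraries that stand apart Ccne1 (0.131), Ect2 (0.0619) and Melk (0.0822) did so in wild-type livers. Cdk1 did so without a filter (0.0529) and Kif23 under voom (0.0527), both in wild-type livers. Some alternatives added calls. Cdkn1a passed in wild-type livers in the fit of only the groups compared (0.0186), and without both libraries that stand apart Mcm7 (0.0343) passed in knockout livers and Aurka (0.0206) in wild-type livers. With 1 library left out, E2f1 and Aurka passed in wild-type livers and Mcm7 and Birc5 in knockout livers, each in 1 fit (adjusted p between 0.0234 and 0.0376). The cause was not tested. Counts under about 1 CPM limit the mitosis genes on chow. No paired analysis was possible because the labels give no replicate numbers that tie libraries of different groups.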
